A study of Sus scrofa with 9 samples.

Results

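Protamines and transition proteins are the small basic proteins that package the DNA of the sperm head. In the general account for mammals, most histones are removed in haploid spermatids and transition proteins (TNP1, TNP2) take their place for a time. Protamines (PRM1, PRM2) then replace the transition proteins and compact the chromatin. Their mRNAs are made in round spermatids and held back from translation until the nucleus elongates, so that transcription and use are apart in time. The array reads RNA, and the proteins that boar sperm contain were not measured here. The array held 7508 gene symbols by the RefSeq names. The probes of these 4 were selected by gene name, or by a description naming a protamine or transition protein 1 or 2, from a custom porcine array. This gave 9 of 60889 non-control probes: 1 each for PRM1, PRM2 and TNP1, 4 for TNP2, and 2 expressed sequence tags described only as weakly similar to a protamine of another species. A further 12 spots carried the same transcript accessions and 2 overlapped the PRM1 probe in sequence, which made 21 spots of the 4 genes. No antisense probe shared 20 bases with any of them.

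Testis biopsies were compared between 3 groups of 3 arrays. The t(1;14) group came from 1 boar, a Landrace x Duroc crossbred with oligo-astheno-teratospermic semen and the karyotype 2n=38,XY,trcp(1;14). The oligospermic group came from 1 boar with oligospermic semen and the normal karyotype 2n=38,XY. The control group had normal semen, and the methods name 3 fertile boars without saying which of them each control array holds. Ages were not given in the sources used here. The methods give 3 extractions from 3 samples per animal, and the results text of the study speaks of a pool of control boars. The p-values measure the spread between arrays of a group. For t(1;14) and oligospermic this spread holds no difference between animals, and for control it cannot be told whether it does. The groups were spread evenly over 3 slides: slide 1 held control 1, oligospermic 1 and t(1;14) 2, slide 2 held control 2, oligospermic 2 and t(1;14) 3, and slide 3 held control 3, oligospermic 3 and t(1;14) 1. In bulk testis RNA, fewer cells of a type and less RNA per cell cannot be told apart.

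The probe sequences show what was read. The 4 probes below are printed because 3 of them end at the stop codon of the gene and the other, of TNP2, was not flagged as saturated on any control array. They are 60 bases long, 5′ to 3′, and capitals mark arginine codons. For TNP2, where 2 frames were open, the frame with more arginine codons is marked.

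PRM1, ending at the stop codon: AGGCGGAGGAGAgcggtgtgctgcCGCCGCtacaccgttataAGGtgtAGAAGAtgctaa

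PRM2, ending at the stop codon: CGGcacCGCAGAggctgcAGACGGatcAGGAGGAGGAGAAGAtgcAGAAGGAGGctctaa

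TNP1, ending at the stop codon: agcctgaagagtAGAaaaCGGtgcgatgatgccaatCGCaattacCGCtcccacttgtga

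TNP2, with no listed start: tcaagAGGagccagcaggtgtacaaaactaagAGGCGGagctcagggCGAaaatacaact

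Of the 19 codons before the stop, arginine took 9 in PRM1, 13 in PRM2 and 4 in TNP1. Cysteine, which cross-links protamines in mature sperm, took 4 codons in PRM1 and 2 in PRM2, and TNP1 had 2 lysine codons. The other probes lie further along the transcripts and are named here by the start position that the array design lists for them. The first 30 bases of each are printed to tell the probes of a gene apart, with no capitals.

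PRM1, listed start 174: ataaggtgtagaagatgctaaacatgcagt

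PRM2, listed start 377: tggaaatgaaggaaaagaaaaagtcacctg

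TNP1, listed start 348: gcgacaaaatgaggaatgtatatgttggct

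TNP2, listed start 455: ccaaggcttgttcctgtgtcggtttcaccc

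TNP2, listed start 534: ttttggcaggaacatgttactacattgatt

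TNP2, listed start 542: ggaacatgttactacattgatttctatgca

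TNP2, listed start 618: attttgatttcactaaaggggtcatgtgtt

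The TNP2 probes with starts 534 and 542 shared 52 bases and are not independent readouts. The PRM1 probe with start 174 shared 21 bases with the one ending at the stop codon. In RefSeq (Sscrofa11.1), PRM1, PRM2, PRM3 and TNP2 are neighbours on chromosome 3 and TNP1 lies on chromosome 15, so none of the 4 genes is on chromosome 1 or 14. No probe of PRM3 was found by its symbol.

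PRM1, PRM2, TNP1 and TNP2 were read at or near the scanner's ceiling in the control and oligospermic testes. PRM2 ending at the stop codon and TNP2 with no listed start, 534 and 542 had unsaturated control readings. At these probes the raw signal of every t(1;14) array was below that of every other array. At the other bright spots every control and oligospermic reading was saturated, so an unsaturated t(1;14) reading there is lower by construction. The ceiling of this scanner is 65535 units per pixel. A spot flagged as saturated has lost its upper range, so that a larger amount of RNA gives the same reading. Without the near-background TNP2 probe, the 17 spots of the 4 genes gave 51 readings in each group. Of these, 44 were saturated in the control group, 47 in the oligospermic group and 17 in the t(1;14) group. Per array, 15, 13 and 16 of 17 spots were saturated in control 1 to 3, and 16, 14 and 17 in oligospermic 1 to 3. In t(1;14) 1 to 3 the counts were 4, 10 and 3. The t(1;14) counts lay below those of the other groups, which overlapped each other, and t(1;14) 2, on slide 1, was nearest to them.

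This loss of saturation was not a feature of all bright probes. The total number of saturated probes per array was 52 to 204 in controls, 75 to 265 in the oligospermic group and 70 to 275 in the t(1;14) group, with the lowest number of each group on slide 2. Of the 52 probes saturated on all 3 control arrays, all 52 were also saturated on all 3 oligospermic arrays. Picked by their control readings, these 52 probes could only keep or lose saturation in t(1;14). Of the 13 member spots among them, 9 (69.2%) were saturated on 0 or 1 of the t(1;14) arrays, compared with 5 of the 39 other probes (12.8%). The 13 spots included repeats of 1 sequence, so they are not 13 independent readouts. Of the 4 probes chosen by name among them, 3 left saturation in this way and PRM1 with start 174 did not. Picked by the t(1;14) readings instead, 70 probes were saturated on all 3 t(1;14) arrays. Of these, 29 were also saturated on all 3 control arrays, and 3 were member spots.

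**Figure D1:**
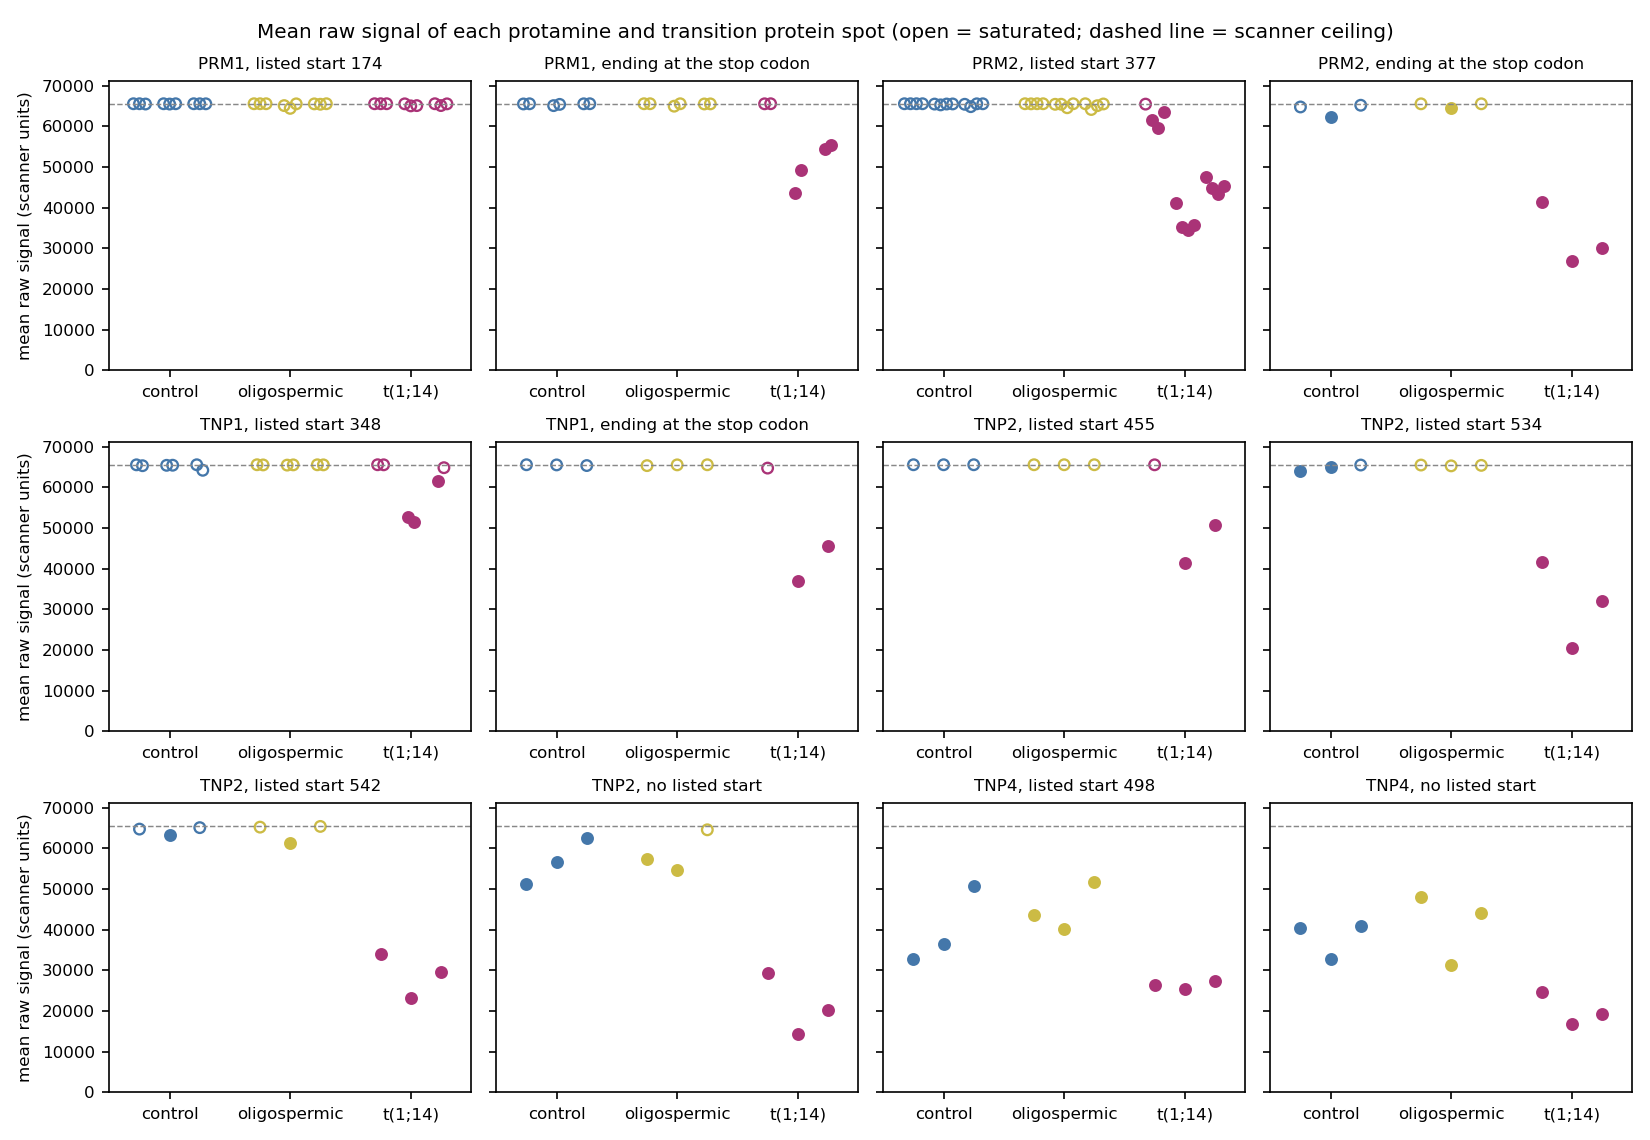
Mean raw signal of each spot, in scanner units, for the 10 bright probes of the 4 genes and 2 of transition protein 4, by group. Each point is 1 spot on 1 array, in the order of slides 1, 2 and 3 within a group, open points are saturated readings and the dashed line is the ceiling of 65535. All control and oligospermic points of PRM1, TNP1, PRM2 with start 377 and TNP2 with start 455 are open, and 17 of 51 t(1;14) readings of the 4 genes are.

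How far the ceiling blurs the values was seen in the saturated readings themselves. The 108 saturated readings of the 4 genes had raw means between 64118 and 65535, whereas their processed intensities ran from 53475 to 81650, because the extraction software divides each spot by a surface that varies across the array. Processed values of saturated spots therefore have no order. Where every control reading was saturated, the tests below use these cut-off values. A difference that does not pass there cannot tell a small change from a larger one hidden by the ceiling. Spots of 1 sequence on 1 array showed the same: the 3 spots of PRM1 with start 174 differed by 12.9 to 37.9% of their mean in processed intensity, and by at most 1.7% in raw signal.

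PRM1, the protamine that all mammalian sperm contain, could be compared through 1 of its probes only. The probe with start 174 was saturated in all 27 of 27 readings, 9 in each group, and gives no fold change. The probe ending at the stop codon, spotted at 2 places, was saturated in all 6 control readings and all 6 oligospermic readings. In the t(1;14) group its raw signal was 54381 and 55280 in array 1, 65518 and 65535 (saturated) in array 2, and 43595 and 49323 in array 3. The readings of arrays 1 and 3 lay below every control and oligospermic reading, of which the lowest was 64935. After normalisation the log2 differences from control at these 2 spots were −0.22 and −0.24 (limma, adjusted p = 0.29 and 0.11). Without the saturated array 2, the highest of the group in raw signal, the measured ratios of control to t(1;14) were 1.26 and 1.18. All control readings were cut off at the ceiling. The difference did not pass the test (limma, adjusted p = 0.14 and 0.20).

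PRM2, the second protamine, which is made as a longer precursor and cut to size, was measured more completely. The probe ending at the stop codon had processed intensities of 54586 (saturated), 58699 and 56482 (saturated) in control 1 to 3. It read 56473 (saturated), 57862 and 59477 (saturated) in oligospermic 1 to 3, and 27941, 36195 and 22947 in t(1;14) 1 to 3, with no saturated pixel. The lowest control reading was above the highest t(1;14) reading, while control and oligospermic overlapped. Normalised log2 values were 15.74 ± 0.21 in control and 14.86 ± 0.02 in t(1;14) (SD, n = 3), and the signal fell by 0.89 ± 0.14 (SE) on the log2 scale (limma, adjusted p = 0.003). The measured ratio of control to t(1;14) was 1.85, with the control level cut off at the ceiling on 2 of 3 arrays. The adjusted p was 0.0175, 0.0129 and 0.0161 without t(1;14) 1, 2 and 3, so that the call at 0.01 was lost each time.

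The PRM2 probe with start 377 was spotted 4 times. All 12 control and all 12 oligospermic readings were saturated, against 1 of 12 in the t(1;14) group. Raw signals in the t(1;14) group were 43320 to 47513 in array 1, 59637 to 65441 in array 2 and 34427 to 41192 in array 3. Arrays 1 and 3 were clearly below the ceiling and array 2 was close to it. Array 2 had 15%, 9.2% and 40.2% of its pixels at the ceiling even at the 3 spots not flagged. The log2 differences from control were −0.33, −0.41, −0.46 and −0.42 at the 4 spots and did not pass the test (adjusted p = 0.096, 0.10, 0.078 and 0.056). At those 3 spots, without array 2, the measured ratios of control to t(1;14) were 1.52, 1.56 and 1.51 (limma, adjusted p = 0.031, 0.027 and 0.017). Array 2 was the t(1;14) array nearest to control there, so leaving it out widened the difference. Values without array 1 or 3 are not given for these spots. Every control reading was cut off at the ceiling.

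TNP1, the smaller of the main transition proteins, was saturated in all 9 control and all 9 oligospermic readings. Its probe ending at the stop codon had processed intensities of 43228, 57398 (saturated) and 37487 in t(1;14) 1 to 3, against saturated readings of 62332, 65588 and 61491 in control. The log2 difference was −0.46 ± 0.13 (SE; adjusted p = 0.026) from control. From the oligospermic group it was −0.44 ± 0.10 (adjusted p = 0.0075), which passed the threshold of 0.01. That call was lost when any array other than oligospermic 1 was left out. The probe with start 348 read 65825, 68685 (saturated) and 56122 at its first spot in t(1;14) 1 to 3, against 77045, 62803 and 75651, all saturated, in control. Its difference of −0.19 ± 0.10 did not pass the test (limma, adjusted p = 0.16). With every control reading cut off, this does not show that the RNA was unchanged. Without t(1;14) 2, the measured ratio of control to t(1;14) was 1.45 at the first of these probes (limma, adjusted p = 0.043), with control cut off at the ceiling. That fit leaves out the highest t(1;14) reading of the probe. At the second, 13.3% of the pixels of t(1;14) 1 were at the ceiling and no fold is given.

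TNP2, a zinc-binding transition protein, gave the clearest measurement, because its probe with no listed start was not flagged as saturated on any control or t(1;14) array. Its processed intensities were 69513, 54976 and 76008 in control 1 to 3, and 72373, 54816 and 73034 in oligospermic 1 to 3, of which the last was saturated. In t(1;14) 1 to 3 they were 22442, 30994 and 15741. Every t(1;14) value was below every value of the other groups, and control and oligospermic overlapped. Normalised log2 values were 16.05 ± 0.13 in control and 14.54 ± 0.14 in t(1;14) (SD, n = 3). The signal fell by 1.51 ± 0.13 (SE) on the log2 scale, with a 95% interval of −1.83 to −1.20 and an adjusted p of 0.00033 (limma). Control was thus 2.85 times t(1;14). Up to 24.5% of the pixels of a control spot were at the ceiling even here.

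The overlapping TNP2 probes with starts 534 and 542 were also lower in t(1;14). With start 534, intensities were 80379, 69649 and 75275 (saturated) in control and 31256, 47620 and 24124 in t(1;14). The signal fell by 1.13 ± 0.13 (SE; adjusted p = 0.00081), and the measured ratio of control to t(1;14) was 2.19, with the control level cut off on 1 of 3 arrays. With start 542, intensities were 70963 (saturated), 65021 and 75268 (saturated) in control and 34027, 46325 and 24475 in t(1;14). The signal fell by 1.03 ± 0.12 (SE; adjusted p = 0.00083), a measured ratio of 2.05 with the control level cut off on 2 of 3 arrays. The probe with start 455, saturated on all 6 control and oligospermic arrays, read 49138, 56562 (saturated) and 38606 in t(1;14), and its difference of −0.35 ± 0.12 missed the threshold (adjusted p = 0.044).

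The TNP2 probe with start 618 was close to background at all 4 of its spots, with processed intensities between 5.1 and 27.4 on the 9 arrays. It was well above background on 4 of 12 control, 7 of 12 oligospermic and 1 of 12 t(1;14) readings. Its log2 difference from control at the spot chosen by name was −0.44 ± 0.45 (SE; adjusted p = 0.45). The 2 expressed sequence tags were also dim but were detected on 8 and 9 of the 9 arrays. The tag described as similar to a possum protamine differed by 0.16 ± 0.54 (adjusted p = 0.82), and the tag described as similar to a Murex protamine by −0.65 ± 0.36 (adjusted p = 0.17).

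**Figure D2:**
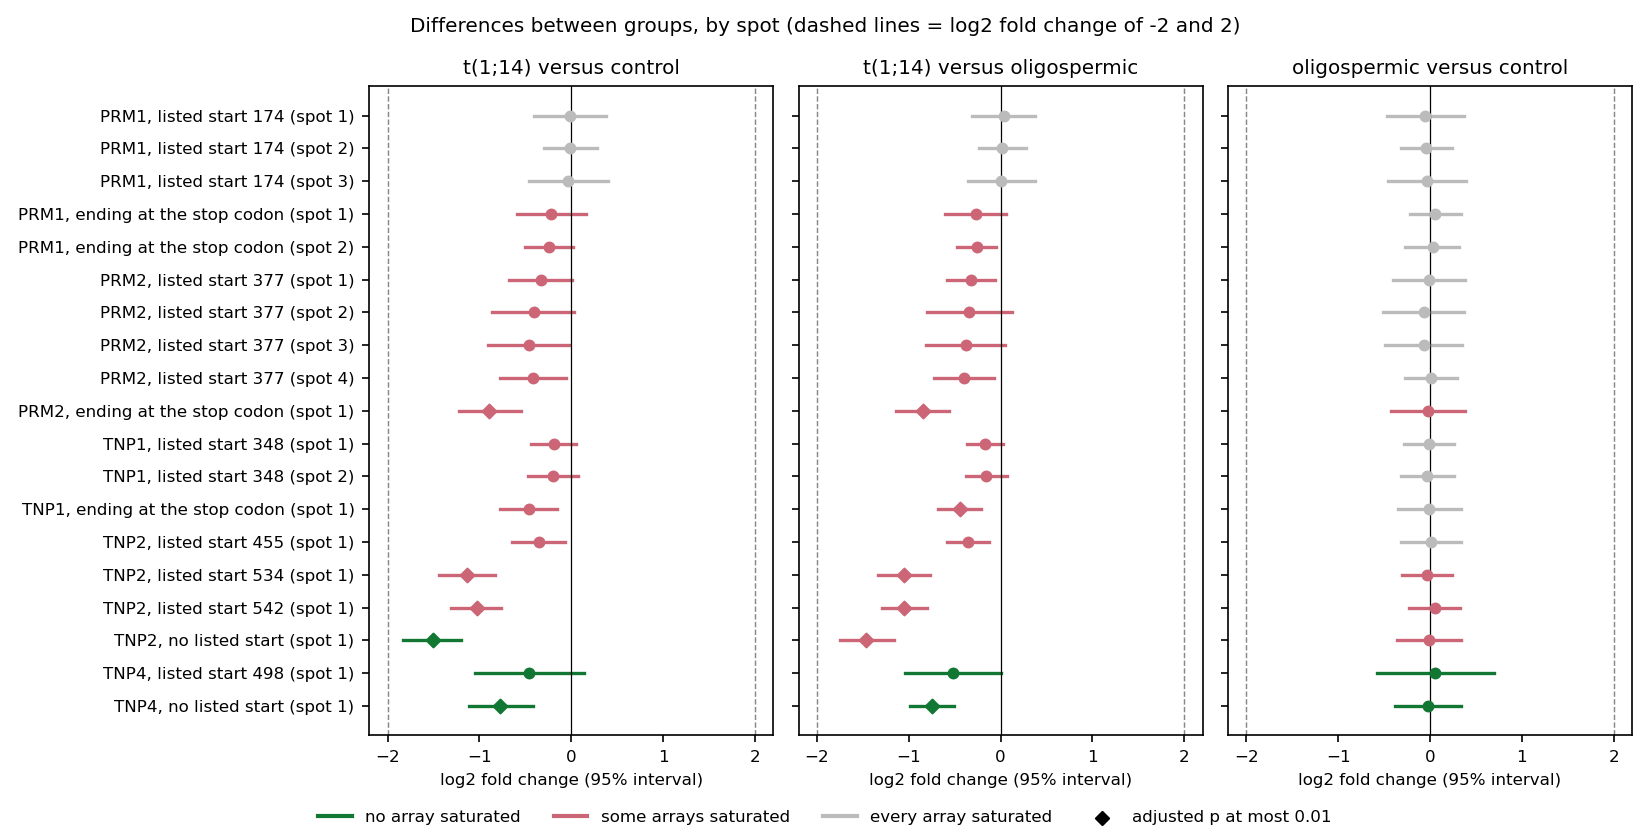
Log2 fold change (x axis) of each spot in the 3 comparisons, with its 95% interval from limma, coloured by whether arrays of the comparison were saturated. Diamonds mark an adjusted p of at most 0.01: TNP2 with no listed start sits at −1.51 against control, while the 3 spots of PRM1 with start 174, saturated on every array, sit at 0.

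Over all probes tested, t(1;14) versus control called 5.53% of 40643 when both an adjusted p no higher than 0.01 and a log2 change of 2 or more in size were asked for. Of the 9 probes chosen by name or description, 0 were called by limma at both thresholds, 3 had an unadjusted p under 0.05 (beside 58% of all probes), and 2 (TNP2 with starts 534 and 542) were lower at an adjusted p of at most 0.01 alone, a rule that 15.6% of all probes met. Their median log2 fold change was −0.35, beside 0.14 over all probes tested. Of the 21 spots of the 4 genes, 18 were tested and 4 were lower by the adjusted p alone: PRM2 ending at the stop codon and TNP2 with no listed start, 534 and 542. With 65535 as the ceiling, a probe saturated in controls could only be called if the t(1;14) signal dropped far below it. Of the 39 other probes saturated on all 3 control arrays, 0 were called lower and 1 was lower at an adjusted p of at most 0.01.

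Against the oligospermic boar the t(1;14) testis gave like values. At both thresholds 6.72% of 40567 probes were called, and 0 of the 9 probes chosen by name or description, with 5 at an unadjusted p under 0.05, beside 68.7% of all probes. At an adjusted p of at most 0.01 alone, 22% of all probes and 2 of the 9 were lower, TNP2 with starts 534 (−1.05 ± 0.12, adjusted p = 0.0004) and 542 (−1.05 ± 0.10, adjusted p = 0.00024). TNP2 with no listed start fell by 1.46 ± 0.12 (adjusted p = 0.00013) and PRM2 ending at the stop codon by 0.85 ± 0.12 (adjusted p = 0.0012). The comparisons with control and with oligospermic share the t(1;14) arrays.

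The oligospermic boar could not be told from the controls at these genes. At both thresholds 0.073% of 39713 probes were called and 0 of the 9, with 0 of the 9 at an unadjusted p under 0.05 (limma), beside 9.86% of all probes. At the spots where control and oligospermic arrays were all saturated no difference can be seen. At TNP2 with no listed start, with 1 of 6 arrays saturated, the difference was −0.01 (95% interval −0.36 to 0.34, adjusted p = 0.99). The interval does not exclude differences within that range.

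At the 4 spots lower by the adjusted p alone, the t(1;14) signal was below the control array of each slide. These spots were picked by their difference on the same arrays, so the direction was largely fixed by the choice. The shares describe its size by slide. At TNP2 with no listed start, t(1;14) was 44.6%, 28.6% and 29.5% of the control array on slides 1, 2 and 3, in processed intensity without normalisation. At PRM2 ending at the stop codon it was 66.3%, 39.1% and 49.5%. TNP2 with start 534 gave 59.2%, 34.6% and 41.5%, and start 542 gave 65.3%, 37.6% and 45.2%. The highest share of each probe was on slide 1, where the 75th percentile of all probes of the t(1;14) array was 113% of that of the control array, against 98.6% on slide 2 and 83.9% on slide 3. Leaving out slide 1 was chosen after the values were seen, and it removes the slide where t(1;14) was nearest to control. Without its 3 arrays, TNP2 with no listed start, 534 and 542 differed from control by −1.66, −1.30 and −1.20 (limma, adjusted p = 0.0034, 0.0034 and 0.0041). PRM2 ending at the stop codon differed by −1.01 (adjusted p = 0.013).

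**Figure D3:**
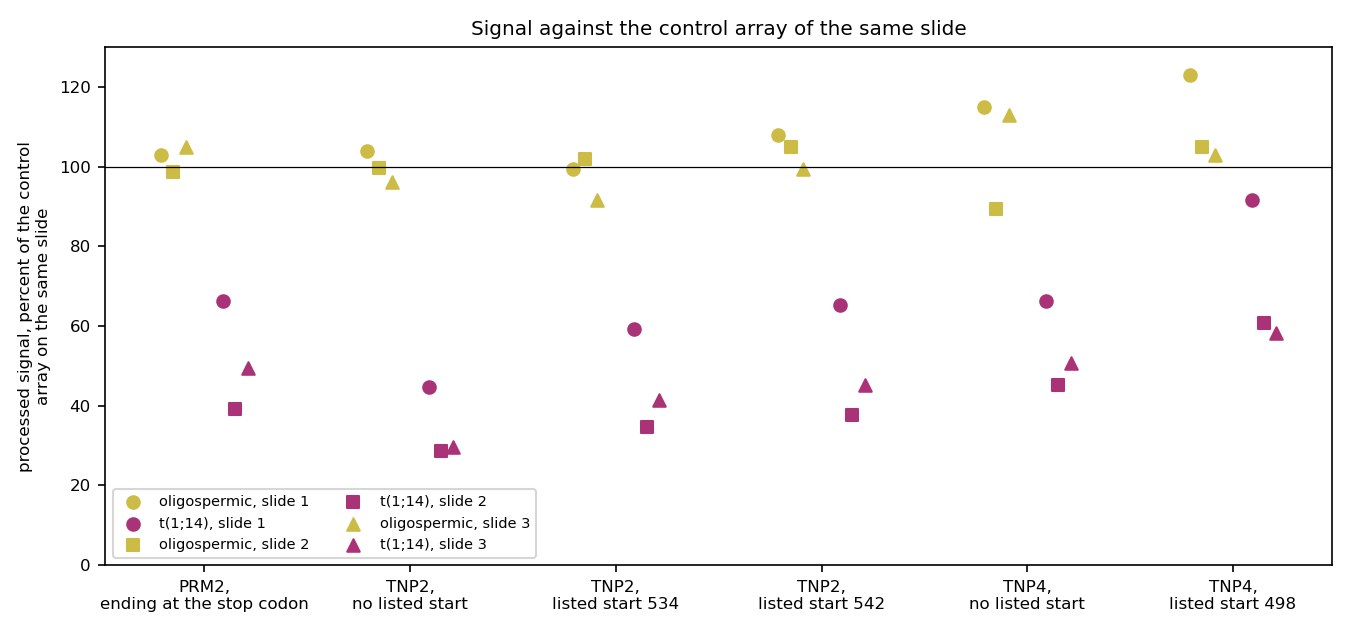
Processed intensity of the oligospermic and t(1;14) arrays as a percent of the control array on the same slide, for 6 probes that were saturated on 0 to 2 of the 3 control arrays; the marker shape gives the slide. Every t(1;14) point lies below 100%, from 28.6% (TNP2 with no listed start, slide 2) to 91.6% (transition protein 4 with start 498, slide 1).

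The array also held 2 probes of transition protein 4 (TNP4), a further transition protein by its description, which was not among the 4 genes. It was saturated on none of the 9 arrays. Its probe with no listed start read 36086, 34045 and 37423 in control, 41466, 30388 and 42247 in oligospermic, and 18992, 23876 and 15337 in t(1;14) 1 to 3. The t(1;14) values did not overlap those of the other groups. The signal fell by 0.77 ± 0.14 (SE) relative to control (adjusted p = 0.006) and by 0.75 ± 0.10 relative to oligospermic (adjusted p = 0.00087). The call against control was lost in the fit with slide as a block (adjusted p = 0.012) and when any t(1;14) array was left out. The probe with start 498 read 31975, 40959 and 49406 in control and 28788, 29280 and 24894 in t(1;14), a difference of −0.46 ± 0.25 that did not pass the test (adjusted p = 0.16). Between oligospermic and control the 2 probes differed by −0.02 (95% interval −0.38 to 0.34) and 0.06 (−0.58 to 0.70).

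Further genes came from 3 lists, called the exchange lists here. They covered spermatid nuclear and head proteins, histone removal and chromatin exchange, and control of the protamine and transition protein genes. The lists held 106 genes in all, of which 52 had a tested probe with the gene's symbol. In t(1;14) versus control, 5 of the 52 were called lower at both thresholds and 0 higher, where 4.24% of all probes were called lower and 1.29% higher. At an adjusted p of at most 0.01 alone 23 were lower and 8 higher, beside 15.6% of all probes in either direction, and the median log2 fold change was −0.53. The 5 were ACTL7A, ACTL7B, CCIN, CAMK4 and SOX30. ACTL7A, ACTL7B and CCIN came from the list of spermatid nuclear and head proteins, whose tested genes included no histone. The median of that list was −2.17, beside −0.02 for histone removal and −0.53 for gene control, so the pooled median does not describe each list. The lists of histone removal and of gene control had 1 called gene each, CAMK4 of 22 tested and SOX30 of 24 tested. In oligospermic versus control 0 of the 52 were called or passed an adjusted p of 0.01 (0.0755% of all probes passed it), and 4 had an unadjusted p under 0.05 (limma), which 9.86% of all probes had.

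Of the spermatid nuclear and head proteins, 6 of 19 genes were tested, and all 6 were lower at an adjusted p of at most 0.01. ACTL7A, an actin-like protein of the acrosome region, fell by 2.94 ± 0.12 (SE; adjusted p = 0.00013), and its relative ACTL7B fell by 2.72 ± 0.12 (adjusted p = 0.00013). CCIN, calicin of the sperm head cytoskeleton, fell by 2.35 ± 0.16 (adjusted p = 0.00016). SPATA18, a mitochondrial quality protein, fell by 1.98 ± 0.12 (adjusted p = 0.00014) and was past both thresholds at 1 of its 2 probes.

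Of the genes of histone removal and chromatin exchange, 22 of 36 were tested. By the adjusted p alone 8 were lower and 5 higher, beside 15.6% of all probes each way, and their median was −0.02. The 3 named here had the largest changes in size. CAMK4, a kinase that phosphorylates protamine 2, fell by 2.13 ± 0.11 (SE; adjusted p = 0.00013) at the brightest of its 3 probes, while another gave −0.14. SRPK1, a kinase of arginine-serine proteins and protamine 1, fell by 1.44 ± 0.15 (adjusted p = 0.00058). IPO4, an importin that carries transition protein 2 into the nucleus, fell by 1.06 ± 0.15 (adjusted p = 0.0019). SRPK1 and IPO4 did not reach the fold threshold.

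Of the genes that control transcription, storage or translation of these mRNAs, 24 of 51 were tested. By the adjusted p alone 9 were lower and 3 higher, beside 15.6% of all probes each way, and their median was −0.53. SOX30, a transcription factor of the switch from meiosis to spermatids, fell by 2.29 ± 0.14 (SE; adjusted p = 0.00014). FHL5, the co-activator of CREM in testis, fell by 1.85 ± 0.15 (adjusted p = 0.00027). BOLL, an RNA-binding protein of the DAZ family, fell by 1.74 ± 0.13 (adjusted p = 0.0002). Relative to the oligospermic boar, ACTL7A, CAMK4 and SOX30 fell, with log2 differences of −2.63, −2.27 and −2.16 (adjusted p = 1.8e-05, 2.8e-05 and 5.9e-05).

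**Figure D4:**
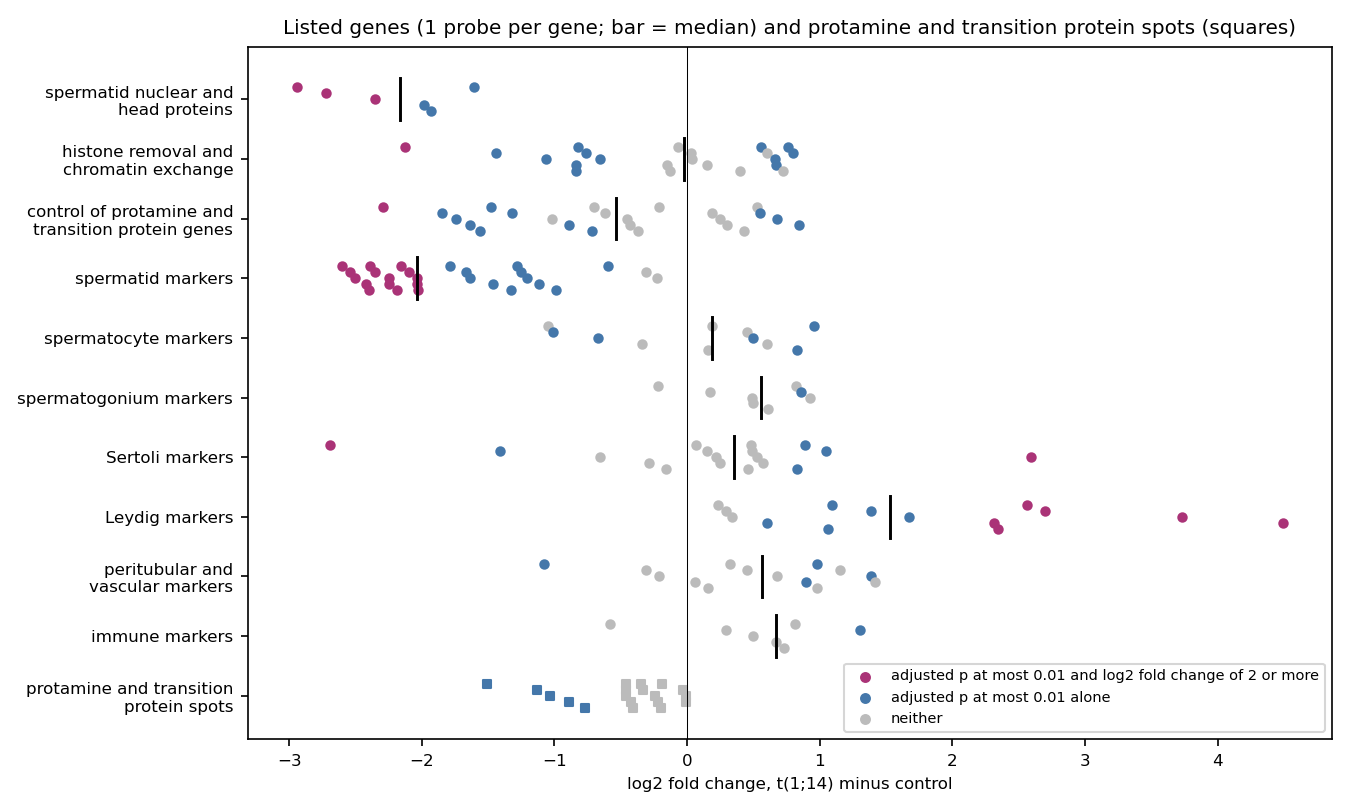
Log2 fold change of t(1;14) minus control (x axis) for each tested gene of the 3 exchange lists and 7 cell type marker lists, and for the bright spots of the 4 genes and TNP4 (squares, bottom). Bars are list medians, −2.03 for spermatid and 1.53 for Leydig markers; the protamine and transition protein squares run from −1.51 to −0.01.

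Markers of cell types went different ways in t(1;14) versus control: spermatid markers were lower and Leydig markers higher. Over all probes, 4.24% were called lower and 1.29% higher at both thresholds, and 15.6% were lower at an adjusted p of at most 0.01 alone. Of 38 spermatid markers 28 were tested, 15 were called lower and 26 were lower at an adjusted p of at most 0.01, with a median of −2.03. Their summed level was 636348 to 658472 in control, 658710 to 699916 in oligospermic and 248934 to 270786 in t(1;14). Of 14 tested Leydig markers (of 15), 6 were called higher, with a median of 1.53 and a summed level of 111079 to 116071 in control, 97364 to 126271 in oligospermic and 267899 to 288432 in t(1;14). Of 11 tested spermatocyte markers (of 26), 0 were called, 9 had an unadjusted p under 0.05 (limma) and the median was 0.19. That p was reached by 58% of all probes, the share against which such counts of markers stand. Their summed level was 45674 to 48299 in control, 45079 to 47629 in oligospermic and 43834 to 49878 in t(1;14). Spermatogonium markers had a median of 0.56 (8 of 20 tested, 0 called, 4 at an unadjusted p under 0.05), with sums of 8068 to 11408 in control, 7845 to 10143 in oligospermic and 14581 to 15164 in t(1;14). Of the Sertoli markers 18 of 22 were tested, 1 was called lower and 1 higher, and the sums were 98200 to 116762, 104721 to 112450 and 119285 to 133369 in the same order of groups. Peritubular and vascular markers (14 of 18 tested, 0 called, 7 at an unadjusted p under 0.05) summed to 21839 to 35164, 23783 to 29405 and 28838 to 33614, and immune markers (7 of 17 tested, 0 called, 3 at an unadjusted p under 0.05) to 654 to 1900, 793 to 922 and 977 to 1108. On no array were 7 immune, 1 spermatogonium and 1 peritubular or vascular marker well above background. The part of these cell type markers in the protamine and transition protein values was not tested.

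Single markers, chosen after their values were seen, show the range. ODF1, of the outer dense fibres of the tail, fell by 2.50 ± 0.12 (SE; adjusted p = 0.00013), and TSSK2, a spermatid kinase, fell by 2.54 ± 0.11 (adjusted p = 0.00013). LDHC and ZPBP2 gave −0.23 and −0.31 and did not pass the test (adjusted p = 0.15 and 0.069). Among Leydig markers STAR, which brings cholesterol to the mitochondrion, rose by 3.73 ± 0.25 (adjusted p = 0.00016).

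The genes whose pattern was most like that of a member were sought over the 9 arrays, normalised together, among 12979 probes with a gene symbol. For PRM2 ending at the stop codon they were MEF2A, RAB5A and SSX2IP (Pearson r = 0.991, 0.988 and 0.987). For TNP1 with start 348 they were RSPH9, CBLN4 and ACTA1 (r = 0.98, 0.972 and 0.971), and for PRM1 ending at the stop codon DGAT1, GOLGA3 and GP1BB (r = 0.955, 0.922 and 0.916). For TNP2 the rule took the probe saturated on the fewest arrays, which was the near-background one with start 618, and gave PTGES3, ACAN and PNISR (r = 0.916, 0.902 and 0.897). With start 542, chosen after the values were seen, they were ALOX5AP, ZBTB26 and CCHCR1 (r = 0.999, 0.998 and 0.998). These correlations describe 9 points in 3 groups on shared slides. The member probes were saturated on 7 (PRM1 and TNP1) or 4 (PRM2 and TNP2 with start 542) of the 9 arrays. Of the 12979 probes, 2245 had an r over 0.9 with TNP2 with start 542, 1778 with PRM2, 875 with TNP1 and 9 with PRM1. For the first 3 of these, the genes named are a few of very many. Saturated member values have no order, so the ranking of genes cannot be relied on for these probes.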

How the data were processed

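The authors labelled total RNA of testis biopsies with cyanine 3, hybridised it to a custom porcine array of 60-mers and extracted signals with Feature Extraction 11.5.1.1. The deposited processed intensity values are background-subtracted and detrended within an array, not normalised between arrays. Their deposited log2 values, quantile normalised over all 9 arrays (38759 probes), served as an alternative. Here log2 processed intensities of the 6 arrays compared were quantile normalised and fitted with limma 3.58.1 in R 4.3.3, and files were read with data.table (version 1.17.8). Probes entered a fit when 2 or more of the 3 arrays in either group passed the background flag and were no outlier. Benjamini-Hochberg adjustment covered every probe fitted. The script was tested on simulated data. Per array, 37087 to 40632 probes were well above background. The number of arrays limits the precision.

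Probes were taken by gene name or description, and further spots by accession or shared sequence. Members and gene lists were chosen with earlier results of these data known. Of listed genes, those called were named, and the 3 with the largest change where fewer were called. Symbols were updated through RefSeq (Sscrofa11.1), and the brightest probe stood for a gene. Alternatives covered scaling, background correction, filters, slide and replicate blocks, thresholds and leaving out arrays.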

Additional observations from a re-analysis of the deposited data

How the results depend on the processing

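Of the 51 readings of the 17 bright spots in each group, 44 were saturated in control and 47 in oligospermic, and 3 arrays of 1 boar carry no spread between animals. No alternative called a member at both thresholds. With adjusted p at most 0.01 alone, or a log2 change of at least 1, 2 of the 9 member probes passed in each t(1;14) comparison. Of all 40643 probes tested against control, 12642 and 7681 passed these 2 rules. Against oligospermic, 19934 and 10069 of 40567 passed. The member counts did not stand out from these shares. TNP2 with no listed start, 534 and 542 kept their direction in both t(1;14) comparisons. Where a value below changed, the cause was not tested, except that leaving out saturated probes removes nearly all bright spots.

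In t(1;14) versus control, all probes called (2247) became 960 with normexp background correction, 1227 with median signal, 12642 with adjusted p alone and 7681 with a log2 change of at least 1. Probes of the exchange lists (6) became 46 and 25 under the last pair of thresholds, with 7, 34 and 61 probes tested in the 3 lists. The spots of the 4 genes at adjusted p at most 0.01 (4 of 18 tested) became 8 with normexp and 1 without saturated probes. The share of all probes under these 2 settings is not given here. TNP1 ending at the stop codon then passed with normexp (−0.43, limma adjusted p = 0.00768) and with an intensity trend (−0.46, 0.00743). TNP4 with no listed start lost its call without the filter (0.0102) and with the slide block (0.0117). PRM1 with start 174 turned to 0.04 under 75th percentile scaling and 0.01 without slide 1, an alternative chosen after seeing the data.

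In oligospermic versus control, all probes called (29) became 14 with normexp, 15 without the filter, 16 with the filter in every group, 0 with the slide block, 54 with all 9 arrays and 15 without slide 1. Values near 0 changed sign. Under 75th percentile scaling TNP2 455 was −0.04, TNP2 542 −0.01 and TNP4 with no listed start 0.00. With normexp TNP2 534, TNP1 348 and PRM2 377 were 0.01, TNP2 542 −0.02, PRM2 at the stop codon 0.04, and TNP2 and TNP4 with no listed start 0.02. With median signal TNP2 534 was 0.03, TNP2 455 −0.01, TNP2 542 −0.02, and TNP2 and TNP4 with no listed start 0.04 and 0.00. PRM2 377 was 0.00 with all 9 arrays. Without slide 1, TNP1 348 and TNP1 at the stop codon were 0.01, and both PRM2 probes 0.02.

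In t(1;14) versus oligospermic, all probes called (2728) became 1126 with normexp, 1398 with median signal, 19934 with adjusted p alone and 10069 with a log2 change of at least 1, and exchange list probes (8) became 58 and 27. Spots of the 4 genes (5 of 19 tested) became 8 with normexp, 3 with the authors' values, 0 without saturated probes and 10 without slide 1. The share of all probes under these settings is likewise not given. TNP1 at the stop codon lost its call under 75th percentile scaling (limma adjusted p = 0.075), median signal (0.0551), no filter (0.0104), the slide block (0.0118), the replicate block (0.0344), all 9 arrays (0.0116) and the authors' values (0.0114). TNP2 455 passed with an intensity trend (−0.36, adjusted p = 0.00327). Without slide 1, TNP2 455 and PRM2 377 (both −0.5) and TNP2 618 (−1.3) passed (0.00743, 0.00922 and 0.000638). The tag similar to a Murex protamine turned to 0.14 (75th percentile), 0.03 (normexp) and 0.01 (median signal), and the possum-like tag to −0.05 (median signal).

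The replicate numbers did not pair t(1;14) with the other groups (correlations of deviations from −0.421 to 0.139), and t(1;14) arrays of a number lie on another slide. For oligospermic and control the number is the slide (0.478, 0.136 and 0.101). With the replicate block, 0 probes were called in oligospermic versus control, and 2 spots of the 4 genes kept adjusted p at most 0.01 in t(1;14) versus control. TNP2 542 (−1.03, 0.0103), PRM2 at the stop codon (−0.89, 0.017), TNP4 with no listed start (0.0264) and IPO4 (−1.06, 0.016) missed it.

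Leaving out 1 array at a time gave 1920 to 2340, 5 to 50 and 2290 to 2914 probes called in t(1;14) versus control, oligospermic versus control and t(1;14) versus oligospermic. Against control PRM1 174 ranged from −0.08 to 0.12, the possum-like tag from −0.24 to 0.66 and PRM2 at the stop codon from −0.97 to −0.78. Against oligospermic, PRM1 174 ranged from −0.08 to 0.13, PRM2 377 from −0.45 to −0.24, TNP2 455 from −0.45 to −0.30, TNP2 618 from −1.28 to −0.74, and the possum- and Murex-like tags from −0.42 to 0.54 and −0.10 to 0.07. Between oligospermic and control, PRM1 174 ranged from −0.14 to 0.07, PRM2 377 from −0.08 to 0.11, PRM2 at the stop codon from −0.10 to 0.09, TNP1 348 from −0.04 to 0.01, TNP1 at the stop codon from −0.06 to 0.08, TNP2 455 from −0.03 to 0.08, TNP2 534 from −0.06 to 0.01, TNP2 with no listed start from −0.10 to 0.08, TNP4 498 from −0.16 to 0.28, TNP4 with no listed start from −0.08 to 0.10 and the possum-like tag from −0.29 to 0.60.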
